A study of Mus musculus with 12 samples.

Results

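The cells described here were endothelial cells of mouse lymph node taken as venous by their Vwf and Selp transcripts, in which no transcript was captured of the 2 enzymes typical of high endothelial venules (HEV, the tall-walled vessels through which lymphocytes enter a node). They were picked in the 6 libraries of the CD31 fraction. A cell was a barcode with at least 1000 UMIs (molecular tags that each mark 1 captured transcript), at least 500 genes and at most 10% mitochondrial UMIs, and it counted as endothelial with at least 2 UMIs of Pecam1 and Cdh5 together and none of Ptprc, Cd79a or Cd3e. Members were chosen by measured transcripts: they had at least 2 UMIs of Vwf and Selp together and none of Fut7, Chst4, the lymphatic factor Prox1 or the arterial genes Gkn3, Gja5 and Bmx. A gene with 0 UMIs in a cell may still be transcribed there at this depth. This rule gave 601 members among 28289 endothelial cells and 50017 cells in all. The same filters gave 2 comparison classes: 1806 HEV cells, with at least 2 UMIs of Fut7 and Chst4 together, and 17916 blood endothelial cells with no UMI of Vwf, Selp, Fut7 or Chst4.

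Venules collect blood from capillaries and are the place where white cells leave the circulation. Their endothelium stores von Willebrand factor (Vwf), which binds platelets, and P-selectin (Selp), which catches rolling leukocytes, in the same granules, the Weibel-Palade bodies. It also carries Ackr1, a receptor that binds chemokines without signalling. In a node, the HEV segments add the sugar-modifying enzymes Fut7 and Chst4 to build ligands for L-selectin on lymphocytes.

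All mice were C57BL/6, 7 to 10 weeks old, carried ATG12 fl/fl (Atg12 is needed to build autophagosomes) and received tamoxifen 5 times. They had or lacked CDH5 CreER, a Cre recombinase active in endothelial cells of all kinds once tamoxifen is given. The treated mice had 50 ul of 4% oxazolone, a contact sensitiser, put on the abdomen and were taken at day 3 or day 7, and the vehicle mice had the acetone and olive oil solvent alone. Each of the 6 combinations was 1 library, and the labels do not say how many mice went into it, so p-values measure only the spread between these libraries. The design asks what endothelial loss of Atg12 does to nodes during skin inflammation.

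The 6 libraries held 45438350 to 76187731 UMIs. In this order throughout (Cre-negative and then Cre-positive, as labelled), the members numbered 68 and 76 at vehicle, 128 and 190 at day 3, and 92 and 47 at day 7, and no member barcode was shared between libraries. Their median depth was 4931 and 4932 UMIs at vehicle, 5525 and 5628 at day 3, and 5368 and 5040.0 at day 7. The library labelled day 3 Cre-positive stood apart, with 24 of its 190 members carrying a UMI of the platelet genes Pf4 or Ppbp against 1 to 5 in each other library. Such a UMI was in 25.5% to 39.5% of HEV cells and 1.39% to 2.48% of cells with no Vwf or Selp. Leaving out members with platelet UMIs may thus also take out members that resemble HEV cells. Of the 24 in the library labelled day 3 Cre-positive, 20 met the rule with Selp UMIs and none of Vwf. Whether Selp or Vwf UMIs of some members came from platelet RNA cannot be told here. Neither point was tested. Members with a UMI of a Y-linked gene (Ddx3y, Eif2s3y, Kdm5d or Uty) were 35.3% and 73.7% at vehicle, 19.5% and 29.5% at day 3, and 26.1% and 29.8% at day 7, so the mix of male and female cells differed between libraries. The targeted gene, Atg12 (chr18:46730144-46741580, minus strand, GRCm38), stood at 40.6 and 64.4 counts per 1000000 UMIs of the members (CPM) at vehicle, 40.7 and 45.9 at day 3, and 36.8 and 90.9 at day 7. Its genotype difference was not called (log2 change 0.72, SE 0.29, adjusted p = 0.999, edgeR quasi-likelihood test), and a count at the 3′ end of a transcript can lie outside the deleted part, so it checks nothing about the labels.

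As a share of blood endothelial cells, the members made up 1.67% and 1.98% at vehicle, 3.48% and 3.56% at day 3, and 2.33% and 1.65% at day 7. Exact Clopper-Pearson 95% intervals, which like all intervals here cover counting error only, were 1.30 to 2.12 and 1.57 to 2.48 at vehicle, 2.91 to 4.13 and 3.08 to 4.09 at day 3, and 1.88 to 2.85 and 1.21 to 2.18 at day 7. Both day 3 shares lay above the intervals of the other 4 libraries. With each cell thinned to 1000 UMIs, the shares were 1.22% and 1.85% at vehicle, 2.80% and 2.04% at day 3, and 2.58% and 1.05% at day 7. The day 7 Cre-negative library then lay between the 2 day 3 libraries. The whole rule was applied again after thinning. Cells that lost their Fut7, Chst4 or arterial UMIs could thus enter, and fewer cells met the endothelial filter (2707 against 4062 at vehicle Cre-negative). The rule reads Vwf and Selp themselves, so a higher share can be more such cells or more of these transcripts per cell, which cannot be told apart here.

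**Figure D1:**
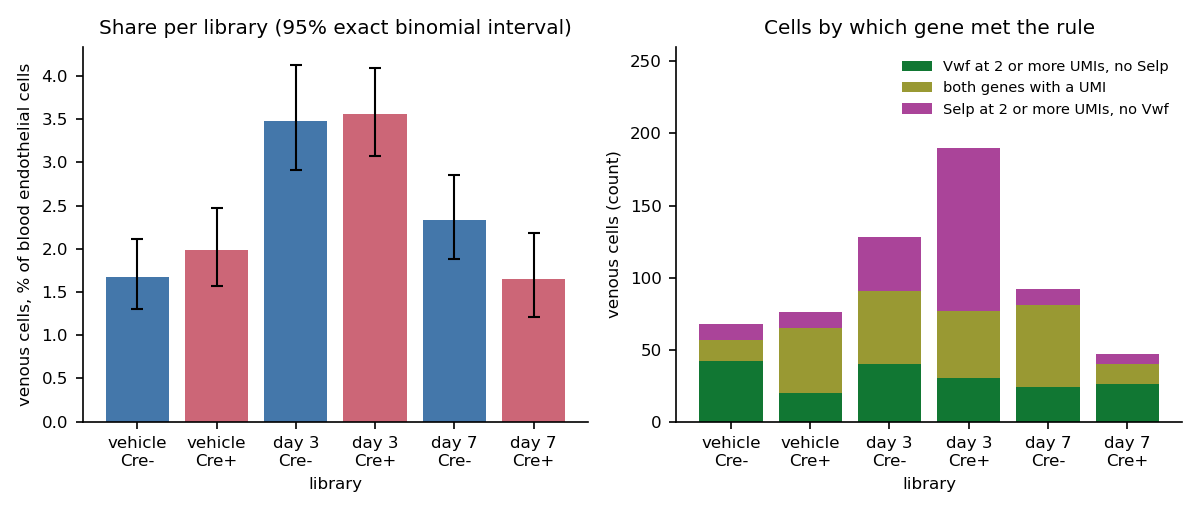
Left, members as a percentage of blood endothelial cells in each library, with exact 95% intervals. Right, number of members by whether Vwf, Selp or both had a UMI. Shares were highest at 3.48% and 3.56% at day 3, and the library labelled day 3 Cre-positive held the most Selp-only members, 59.5% of its members.

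The label was checked against Ackr1, which the rule did not read. Ackr1 (chr1:173331886-173333750, GRCm38) stood at 139.7 and 319.6 CPM at vehicle, 256 and 203 at day 3, and 299.6 and 145 at day 7 in members, against 1.54 to 4.49 CPM in the cells with no Vwf or Selp. Between 22.1% and 48.7% of the members of a library carried an Ackr1 UMI, against 0% to 0.458% of B cells, which should lack it and had a median depth of 2790 to 3414.5 UMIs. In HEV cells Ackr1 ranged from 201 to 307 CPM, so it does not part members from HEV. Nr2f2, the transcription factor that sets venous identity, was at 119 and 284 CPM at vehicle, 253 and 169.8 at day 3, and 278 and 165 at day 7 in members and 39.6 to 51.6 CPM in the cells with no Vwf or Selp. These are levels of classes cut by the rule and carry no test.

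Near the threshold Ackr1 was lower. Cells with 1 UMI of Vwf and Selp had 9.07 to 29.6 CPM of Ackr1 over the 6 libraries (median 20.7), those with exactly 2 had 10.9 to 69.9 CPM (median 51.3), and all members had 139.7 to 319.6 CPM (median 229.8). The 608 cells with 1 UMI lay just outside the rule and 153 of the members just inside it. In these 153 the capillary gene Rgcc was 150 to 468 CPM (median 397), against 57.0 to 274 CPM (median 190) in all members. Their HEV gene Glycam1 was 6211 and 8267 CPM at vehicle, 328 and 4794 at day 3, and 11559 and 2288 at day 7. In all members it was 3530 and 1784 CPM at vehicle, 785 and 2489 at day 3, and 14812 and 4250 at day 7.

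Several genes that the rule did not name were higher in members than in both comparison classes in each of the 6 libraries. Cells with arterial genes were in neither class, so these values do not show whether arterial cells carried the genes too. Cytl1, a small secreted protein, averaged 77.9 CPM in members, 0.634 CPM in HEV cells and 0.0661 CPM in cells with no Vwf or Selp. The matrix genes Mgp, an inhibitor of calcification, and Bgn, a small proteoglycan, averaged 137 and 132 CPM in members and at most 7.64 CPM in either other class. Fibulin 2 (Fbln2) averaged 256 CPM, elastin (Eln) 247 CPM and the lymphatic growth factor Vegfc 60.7 CPM in members. Cytl1 UMIs came from 39 of the 601 members, so a minority of cells carried its level.

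Markers of other cell types were summed over each list to see what else the members carried. The HEV list (8 genes, with Fut7 and Chst4 at 0 by the rule) summed to 5252 and 3646 CPM at vehicle, 2461 and 3866 at day 3, and 20713 and 6846 at day 7 in members, of which Glycam1 alone was 785 to 14812 CPM, against 20552 to 90565 CPM in HEV cells and 831 to 2043 CPM in cells with no Vwf or Selp. Members with a Glycam1 UMI were 47.1% and 34.2% at vehicle, 56.2% and 58.9% at day 3, and 57.6% and 34.0% at day 7 of all members. B cells with one, which should lack the gene, were 17.5% and 9.46% at vehicle, 32.5% and 12.2% at day 3, and 41.0% and 5.61% at day 7 of all B cells, at a lower median depth (2790.0 to 3414 against 4931 to 5628 UMIs). The capillary list (8 genes) summed to 18693 and 9513 CPM at vehicle, 9879 and 4761 at day 3, and 8298 and 10591 at day 7 in members, 12371 to 24691 CPM in cells with no Vwf or Selp and 1136 to 1946 CPM in HEV cells. In each library the members' sums on both lists lay between those of the other classes. The arterial list of 9 genes summed to 587 to 919 CPM with Gkn3, Gja5 and Bmx at 0 by the rule, and the lymphatic list of 7 genes to 485 to 4254 CPM, mostly Ccl21a, with Prox1 at 0 by the rule. Sums for blood and stromal cells were low: platelet list 17.8 to 72.6 CPM with 5 of 10 genes at 0 in all libraries (Gp1bb, Gp1ba, Treml1, Clec1b and Gp6), B cell 3.37 to 22.9, T cell 0 to 22.2, myeloid 13.2 to 169, fibroblastic reticular 1.53 to 33.0, pericyte and smooth muscle 20.6 to 174, and erythroid 0 to 183 CPM. Fits were also made without the members that carried platelet UMIs, with Glycam1 at most 1% of a member's UMIs and with free RNA subtracted. Beyond these, the part of the other markers in the results was not tested.

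The members were split by which of the 2 genes had a UMI. Of the 601, 182 had Vwf and no Selp UMI (Vwf-only), 190 had Selp and no Vwf UMI (Selp-only) and 229 had both. In library order, the Vwf-only share of members was 61.8% and 26.3%, 31.2% and 15.8%, and 26.1% and 55.3%, and the Selp-only share 16.2% and 14.5%, 28.9% and 59.5%, and 12.0% and 14.9%. Selp-only cells were thus the largest kind in the library labelled day 3 Cre-positive. They held 20 of its 24 members with platelet UMIs and 14 of its 15 members with Glycam1 above 1% of UMIs. Median depth ranged over the libraries from 3844.5 to 5061 UMIs in Vwf-only and from 3691 to 8131 UMIs in Selp-only cells. Ackr1 was highest in cells with both, at 335 to 516 CPM, and ranged from 7.45 to 141 CPM in Vwf-only and 44.9 to 125 CPM in Selp-only cells. In each library Ackr1 in Vwf-only and in Selp-only cells was below its lowest level in HEV cells, and in cells with both it was above the highest. The venous name therefore rests on the rule more than on Ackr1 for the Vwf-only and Selp-only cells, and Vwf-only cells also carried more of the arterial and capillary genes Fbln5, Efnb2, Cd36 and Gpihbp1 than Selp-only cells did.

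Between Vwf-only and Selp-only cells, 380 of 2352 genes (16.2%) passed the test, with the library as a block. Of these, 213 (9.06%) were higher in Selp-only and 167 (7.1%) higher in Vwf-only cells (edgeR, adjusted p under 0.05 over all genes tested). Among the genes higher in Selp-only cells were Sele, Icam1, Vcam1 and 9 of 13 genes of the cytokine and NF-kB response list, and among those higher in Vwf-only cells were Fbln5, Cd36, Gpihbp1 and 4 of 10 shear-linked genes. Both genes were left out of the test. Since the rule asks for 2 UMIs of Vwf and Selp together, a Vwf-only cell held at least 2 Vwf UMIs and a Selp-only cell at least 2 Selp UMIs. The calls are therefore genes that went with 1 of these transcripts rather than the other, and they do not show that the kinds are separate cell types. A cell that transcribes both can fall into either kind at this depth. All fold changes of this comparison are on the log2 scale and positive where Selp-only cells were higher.

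Sele (E-selectin, chr1:164048234-164057677, plus strand), which catches leukocytes after cytokine stimulation, stood in Selp-only cells at 1047 and 271 CPM at vehicle, 553 and 463 at day 3, and 152 and 667 at day 7. In Vwf-only cells it stood at 73.9 and 49.1 CPM at vehicle, 149.8 and 12.9 at day 3, and 0 and 0 at day 7. Each library had more in its Selp-only cells, which the choice of the largest changes to name had asked for. The ranges did not overlap (log2 change 3.55, SE 0.43, adjusted p = 4.07e-05). Here and below, Selp-only levels rest on 11 and 11 cells at vehicle, 37 and 113 at day 3, and 11 and 7 at day 7. At vehicle and day 7 these cells held 52506 to 77450 UMIs in all per library, so low levels there are a few UMIs. Icam1 and Vcam1, the integrin ligands that arrest leukocytes, went the same way. Icam1 was 181 to 987 CPM in Selp-only and 82.0 to 347 CPM in Vwf-only cells (log2 change 1.62, SE 0.27, adjusted p = 0.000888), and Vcam1 was 85.1 to 867 and 25.7 to 283 CPM (log2 change 1.66, SE 0.32, adjusted p = 0.00217). The ranges of both overlapped between libraries. Of the 15 tested genes of the adhesion list 4 were higher and 2 lower in Selp-only cells, with 8 changes positive, 7 negative and a median of 0.18.

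Of the 13 tested genes of the cytokine and NF-kB response list, 9 were higher in Selp-only cells and none lower, and the list's median was 1.06 against 0.01 over all genes tested. Socs3, a feedback inhibitor of cytokine receptors, was 478 and 387 CPM at vehicle, 269 and 235 at day 3, and 405 and 57.1 at day 7 in Selp-only and 22.4 to 98.3 CPM in Vwf-only cells (log2 change 2.48, SE 0.27, adjusted p = 2.37e-05). Tnfaip3, an NF-kB inhibitor also called A20, differed by 1.71 (SE 0.30), Birc3 by 1.64 (SE 0.31), Relb by 1.73 (SE 0.30) and Nfkbia by 1.06 (SE 0.25). All 4 restrain or carry NF-kB signalling, and the neutrophil chemokine Cxcl1 also was higher in Selp-only cells (log2 change 2.16, SE 0.42, adjusted p = 0.00225). Of the 15 immediate early genes, 8 were higher in Selp-only cells, among them Fosb (1.48, SE 0.30), Egr1 (1.06, SE 0.24) and Jun (0.97, SE 0.22).

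Other large differences towards Selp-only cells were Hdac9, a histone deacetylase (3.17, SE 0.35), Pglyrp1, which binds bacterial peptidoglycan (2.77, SE 0.25), Noct, a deadenylase-like clock gene (2.47, SE 0.26), the A20 partner Tnip1 (2.30, SE 0.33) and Anxa1, an annexin that restrains inflammation (1.82, SE 0.24). Antigen presentation genes gave 2 calls of 6, with B2m higher by 0.48 and H2-K1 by 0.48. With 9.06% of all genes tested called higher in Selp-only cells, 2 calls in so short a list say little about it.

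Of the 12 tested HEV programme genes 6 were higher in Selp-only cells and none lower, with 9 changes positive, 3 negative and a median of 0.94. Relb and Nfkb2, 2 of the 6, also stand on the cytokine and NF-kB response list. The others included Ccl21a, the chemokine that draws naive lymphocytes (log2 change 2.93, SE 0.55, adjusted p = 0.00178), Chst2, a sulphotransferase (1.43), and Enpp2, which makes lysophosphatidic acid (0.85). Ccl21a has near-identical copies between which reads can split, so its counts are uncertain. Glycam1, the L-selectin ligand of HEV, differed by 3.06 (SE 0.79, adjusted p = 0.0139), and this call was lost without the library labelled day 3 Cre-positive (adjusted p = 0.0839). The part of HEV programme genes in the other differences was not tested.

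Among the genes higher in Vwf-only cells was fibulin 5 (Fbln5), which links elastic fibres to cells. It was 148 and 265 CPM at vehicle, 198 and 308 at day 3, and 191 and 179 at day 7 in Vwf-only cells. In Selp-only cells it was 0 to 15.0 CPM, and the ranges were far apart (log2 change -6.31, SE 0.49, adjusted p = 6.07e-07). Mgp was 96.9 to 295 against 0 to 142 CPM (log2 change -4.04, SE 0.59, adjusted p = 0.00025). Fbln5 stands on the arterial marker list too, and so does Efnb2, the arterial ligand of Ephb4, which was 115 to 283 CPM in Vwf-only and 0 to 152 CPM in Selp-only cells (log2 change -2.12, SE 0.35, adjusted p = 0.000712).

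Of the 6 tested genes of the lipid metabolism list, 4 were higher in Vwf-only cells and 1 in Selp-only cells. Cd36, a fatty acid carrier, was 656 to 1895 CPM in Vwf-only and 39.0 to 736 CPM in Selp-only cells (log2 change -2.49, SE 0.43, adjusted p = 0.000949), and Gpihbp1, which holds lipoprotein lipase on capillaries, was 353 to 1154 and 19.0 to 271 CPM (log2 change -2.94, SE 0.37, adjusted p = 6.86e-05). Cxcl12, a chemokine for leukocytes and progenitors, was 1593 and 875 CPM at vehicle, 1001 and 1825 at day 3, and 1059.8 and 1394 at day 7 in Vwf-only and 121 to 516 CPM in Selp-only cells (log2 change -2.28, SE 0.27, adjusted p = 2.99e-05). In each library these 3 genes were higher in the Vwf-only cells, which the choice of the largest changes to name had asked for. For Cxcl12 and Gpihbp1 the ranges did not overlap. Rbp7, a retinol binding protein (-3.14), the tight junction gene Cldn5 (-2.69), T-cadherin Cdh13 (-2.40), the lipase Mgll (-2.39) and the fatty acid binding protein Fabp4 (-2.24) were also among the 12 largest differences towards Vwf-only cells. On the VEGF and sprouting list 6 of 10 genes were lower in Selp-only cells, including the VEGF receptor Kdr (-0.66) and its partner Nrp1 (-0.89), and on the shear list 4 of 10, including Klf4 (-0.81). Of the basement membrane list 5 of 16 were lower, including laminin Lama4 (-1.22).

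Leaving out the day 3 Cre-negative or the day 3 Cre-positive library left 222 and 211 called genes, and leaving out both left 91. Dividing cells (a UMI of Mki67 or Top2a) were 12 of 37 and 31 of 113 Selp-only members at day 3 and 2 of 40 and 1 of 30 Vwf-only members. At vehicle they were 3 of 11 and 1 of 11 Selp-only and 2 of 42 and 0 of 20 Vwf-only members. These counts were not matched for depth. At day 3 median depth was 8131 and 5789 UMIs in Selp-only and 5061 and 3844.5 UMIs in Vwf-only members.

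**Figure D2:**
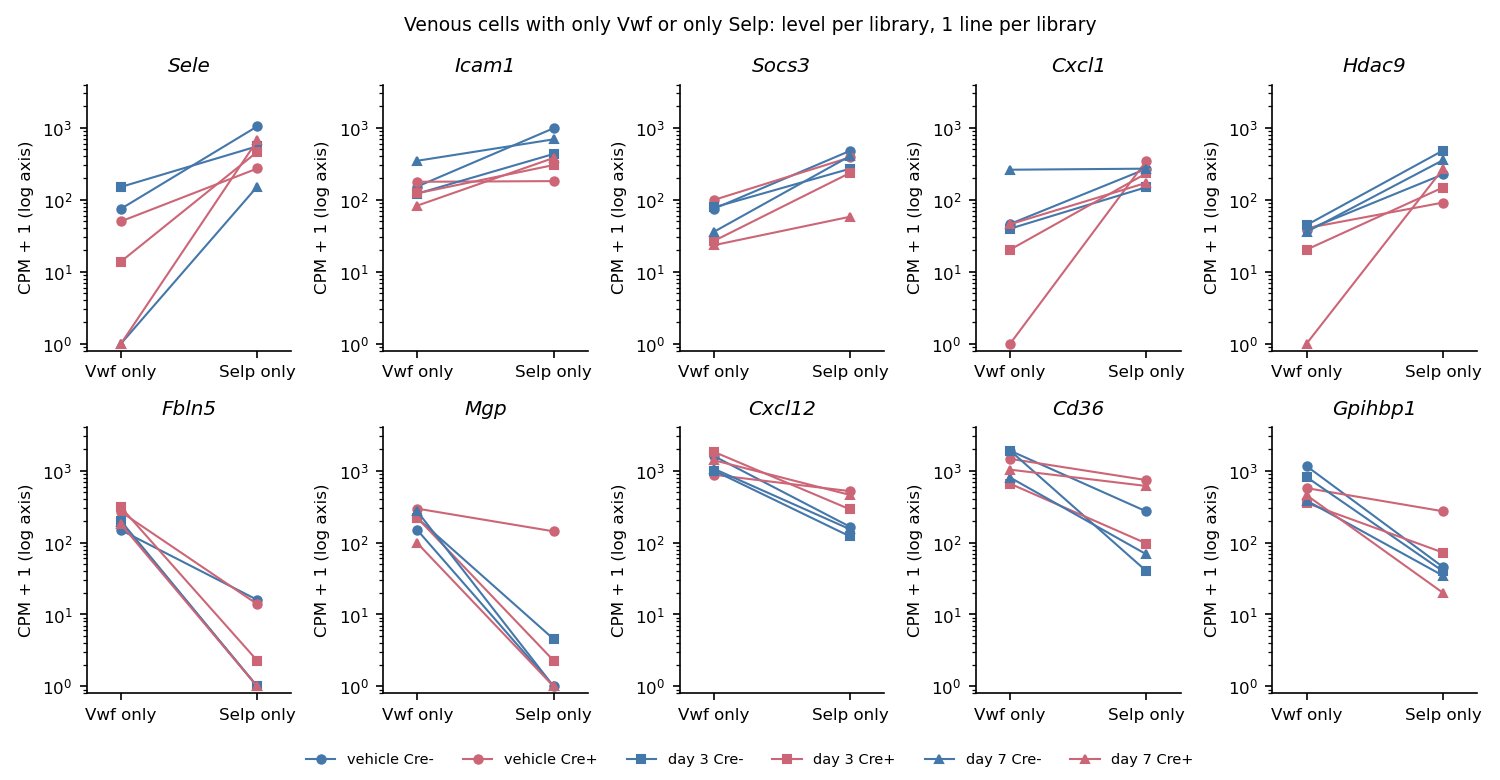
Levels of 10 genes in Vwf-only and Selp-only members, as CPM plus 1 on a log axis, with 1 line per library (marker by treatment, colour by genotype). All 6 lines rise for Sele (log2 difference 3.55) and fall for Fbln5 (-6.31). Selp-only values of vehicle and day 7 rest on 7 to 11 cells per library.

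Promoters from RefSeq (GRCm38.p6, 250 bases before to 50 after a gene's start) were searched on both strands for a form of the site read by NF-kB (GGG, any 2 bases, TT, any 1 base, CC), because that response list was higher in Selp-only cells. The motif was in 20 of 164 genes higher in Selp-only cells (12.2%), 6 of 129 genes higher in Vwf-only cells (4.65%), 136 of 1873 genes tested (7.26%) and 1480 of all 27025 genes (5.48%), counting genes with a promoter in the table and a match in any of a gene's promoters. Cxcl1 (chr5:90890995-90891294, plus strand) held 2 matches and Tnfaip3 (chr10:19015361-19015660, minus strand) 1, while a second Tnfaip3 promoter in the table held none. The Selp promoter (chr1:164115014-164115313, plus strand), shown for comparison as the gene that defines the kind, held none, and neither did those of Sele, Icam1, Birc3 and Socs3. The 3 sequences follow, 5′ to 3′ on the gene's strand, with the motif in capitals.
Cxcl1: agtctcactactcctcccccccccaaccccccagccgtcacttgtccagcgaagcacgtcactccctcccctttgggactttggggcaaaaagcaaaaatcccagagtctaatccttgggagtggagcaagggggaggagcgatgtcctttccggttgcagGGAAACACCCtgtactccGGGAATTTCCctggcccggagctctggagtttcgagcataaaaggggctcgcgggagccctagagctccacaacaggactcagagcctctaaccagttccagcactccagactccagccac
Tnfaip3: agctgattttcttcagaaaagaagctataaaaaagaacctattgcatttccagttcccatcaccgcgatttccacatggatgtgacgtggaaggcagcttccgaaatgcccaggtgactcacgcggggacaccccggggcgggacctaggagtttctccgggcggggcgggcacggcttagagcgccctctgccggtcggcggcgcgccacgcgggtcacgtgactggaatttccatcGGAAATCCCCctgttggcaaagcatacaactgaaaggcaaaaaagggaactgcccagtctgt
Selp: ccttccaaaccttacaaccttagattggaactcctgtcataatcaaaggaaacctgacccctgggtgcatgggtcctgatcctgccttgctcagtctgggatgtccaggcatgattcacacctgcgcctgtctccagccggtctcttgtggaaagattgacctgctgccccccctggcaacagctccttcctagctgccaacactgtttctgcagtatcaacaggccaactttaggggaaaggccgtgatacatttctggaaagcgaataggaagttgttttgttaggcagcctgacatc
A match is a description of these letters. A promoter with none may hold a site of another form within this window, which was not searched for, or a site elsewhere.

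Members of mice labelled Cre-positive differed from those labelled Cre-negative in 4 of 6695 genes (0.0597%), averaged over the 3 treatments. Hamp, Cdkn1a and Phlda3 were higher (0.0448% of genes) and Mt1 was lower (0.0149%). The same 4 genes passed in DESeq2, and 234 had an unadjusted p under 0.05 in edgeR. This fit has 2 residual degrees of freedom among the 6 libraries and borrows spread across genes. Leaving out 1 library at a time gave 64 and 40 called genes without a vehicle library, 9 and 10 without a day 3 library, and 13 and 15 without a day 7 library (Cre-negative first), and the 4 genes were among them each time.

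Cdkn1a (chr17:29090976-29100727), which encodes the cell cycle inhibitor p21 and is a target of p53, was 50.8 and 169 CPM at vehicle, 55.1 and 173 at day 3, and 95.6 and 249 at day 7. Each Cre-positive library lay above each Cre-negative library (log2 change 1.63, SE 0.24, adjusted p = 0.00112). Phlda3, a p53 target that restrains Akt, was 7.62 and 85.9 CPM at vehicle, 22.7 and 75.7 at day 3, and 25.7 and 87.6 at day 7, again with no overlap (log2 change 2.13, SE 0.32, adjusted p = 0.00131). These UMIs came from 160 members for Cdkn1a and 107 for Phlda3. All 10 tested genes of the p53 target list had a positive change, with a median of 0.69 against 0.02 over all genes, and 2 of the 10 passed the test. Among the uncalled ones was Mdm2, the p53 inhibitor (log2 change 0.62, SE 0.30, adjusted p = 0.999).

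By kind, Cdkn1a was 72.0 and 167 CPM at vehicle, 37.5 and 248 at day 3, and 86.6 and 426 at day 7 in members with both genes, 59.8 and 349 CPM at vehicle, 70.9 and 154 at day 3, and 185 and 248 at day 7 in Selp-only members and 41.1 and 39.3 CPM at vehicle, 62.8 and 90.0 at day 3, and 78.2 and 104 at day 7 in Vwf-only members. The Cre-positive library of each pair was higher in 3 of 3 pairs in the first 2 kinds and in 2 of 3 in Vwf-only members. Cdkn1a was also among the genes called higher in Selp-only than in Vwf-only cells, and the mix of kinds differed within pairs. Vwf-only cells were 61.8% and 26.3% of members at vehicle, 31.2% and 15.8% at day 3, and 26.1% and 55.3% at day 7. Selp-only cells were 16.2% and 14.5%, 28.9% and 59.5%, and 12.0% and 14.9% in that order. The part of this mix in the genotype calls was not tested. Without members carrying platelet UMIs, adjusted p was 0.0639 for Cdkn1a (log2 change 1.54) and 0.142 for Phlda3 (log2 change 2.04). Without both day 3 libraries the values were 0.22 and 0.0673.

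Mt1, a metallothionein that binds zinc and copper, was 244 and 14.3 CPM at vehicle, 114 and 10.7 at day 3, and 38.6 and 13.5 at day 7, and each Cre-negative library lay above each Cre-positive one (log2 change -3.27, SE 0.36, adjusted p = 8.78e-06). It came from 46 members, and its level was carried by Vwf-only cells, at 394 and 0 CPM at vehicle, 382 and 6.43 at day 3, and 122 and 29.8 at day 7, with 0 to 12.9 CPM in Selp-only cells. Hamp, the gene of the iron hormone hepcidin, was 5.08 and 100.2 CPM at vehicle, 2.39 and 57.4 at day 3, and 20.2 and 182 at day 7, higher in the Cre-positive library of each pair (log2 change 3.73, SE 0.36, adjusted p = 1.65e-06). Its UMIs came from 20 members, 1 of which gave 21.5% of them. In HEV cells Hamp was 121 and 399.7 CPM at vehicle, 396 and 289 at day 3, and 153 and 43.4 at day 7, higher in the Cre-positive library at vehicle alone. The genotype difference itself differed between members and HEV cells in 5 of 9882 genes (0.0506%), 1 with a more positive difference in members (0.0101%) and 4 with a more negative one (0.0405%). The test for Hamp gave a log2 value of 4.88 (edgeR adjusted p = 2.01e-09), and for Mt1 -4.36 (adjusted p = 2.83e-05), with Mt1 at 1.96 to 20.3 CPM in HEV cells.

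The share of members with a Y-linked UMI was higher in the Cre-positive library of each pair, with 14 of 47 against 24 of 92 members at day 7. In all blood endothelial cells it was 42.1% and 66.0% at vehicle, 24.4% and 36.4% at day 3, and 30.7% and 18.9% at day 7, higher in the Cre-positive library at vehicle and day 3 and lower at day 7. No fit with sex as a term was made. Among the 199 members with such a UMI, 0 genes passed in edgeR and 82 had an unadjusted p under 0.05. Cdkn1a had a log2 value of 0.75 there, against 1.63 in all members, and Hamp, Phlda3 and Mt1 did not pass the count filter. In these members Cdkn1a was 77.6 and 143 CPM at vehicle, 65.8 and 101 at day 3, and 106 and 176 at day 7. Phlda3 was 0 and 48.6 CPM at vehicle, 25.3 and 64.4 at day 3, and 26.5 and 31.1 at day 7. Both were higher in the Cre-positive library in 3 of 3 pairs. Hamp was 6.46 and 0 CPM at vehicle, 5.06 and 25.8 at day 3, and 73.0 and 0 at day 7, higher in 1 of 3 pairs. Mt1 was 0 and 9.11 CPM at vehicle, 5.06 and 10.7 at day 3, and 33.2 and 10.4 at day 7, lower in 1 of 3. In the members with no Y-linked UMI, Cdkn1a, Phlda3 and Hamp were higher and Mt1 lower in 3 of 3 pairs. Hamp was 4.18 and 467 CPM at vehicle, 1.57 and 74.8 at day 3, and 0 and 269 at day 7 and Mt1 402 and 33.4 CPM at vehicle, 147 and 10.7 at day 3, and 40.7 and 15.0 at day 7. A male cell can lack such a UMI at this depth. This split was looked at after the other values were seen.

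Edn1, the vasoconstrictor endothelin 1, was 114 and 31.0 CPM at vehicle, 98.2 and 35.9 at day 3, and 88.2 and 87.6 at day 7 in members, lower in the Cre-positive library at vehicle and day 3 and nearly equal at day 7, and the members' own difference was not called (log2 change -1.04, SE 0.30, adjusted p = 0.625). Among other uncalled genes with small p, Slc14a1, a urea transporter, had a log2 value of 1.29 (SE 0.30, adjusted p = 0.247), and Angptl4, an inhibitor of lipoprotein lipase, one of -1.90 (SE 0.42, adjusted p = 0.185). The autophagy list had 0 of 23 tested genes called and a median of 0.03. The venous identity list had 0 of 22 called (median -0.03), and Ackr1 differed by -0.02 (SE 0.30). With 0.0597% of all genes called by genotype, 0 calls in lists of this size do not show that the lists were unchanged.

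**Figure D3:**
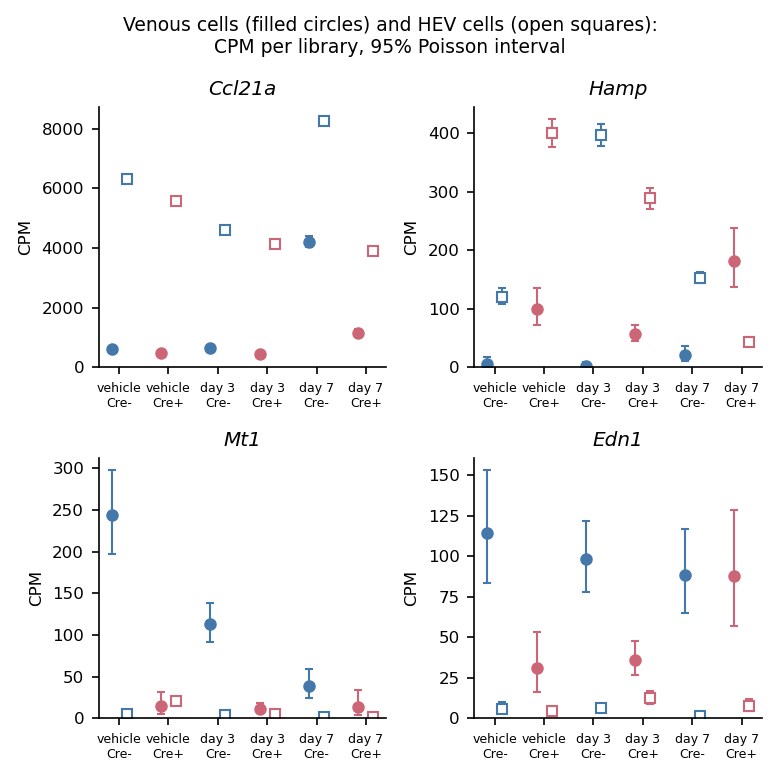
Levels of Ccl21a, Hamp, Mt1 and Edn1 in members (filled circles) and HEV cells (open squares) of each library, in CPM with exact Poisson 95% intervals. In members Mt1 lay at 38.6 to 244 CPM in the libraries labelled Cre-negative and at 10.7 to 14.3 CPM in those labelled Cre-positive.

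**Figure D4:**
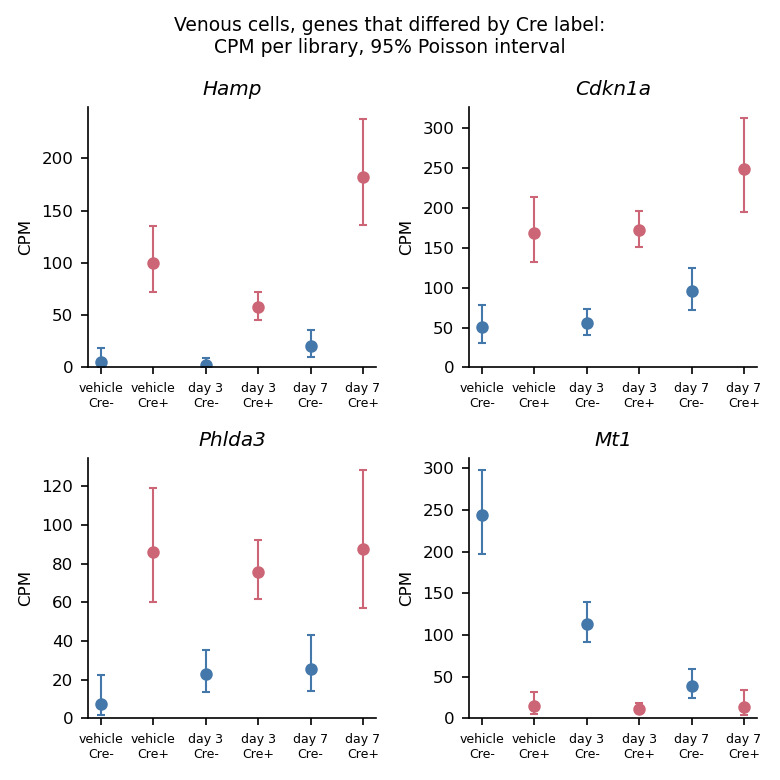
Levels of the genes called by genotype in the members of each library, in CPM with exact Poisson 95% intervals. Cdkn1a lay at 169 to 249 CPM in the libraries labelled Cre-positive and at 50.8 to 95.6 CPM in those labelled Cre-negative.

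At day 3 against vehicle, with both genotypes together, 91 of 6695 genes passed (1.36%), 50 higher (0.747%) and 41 lower (0.612%). Stmn1, Hmgb2, H2afz and Tyms, 4 of the 8 tested cell cycle genes, rose. Fosb, Zfp36 and Nr4a1, 3 of the 15 immediate early genes, fell, as did Vcam1 and the fat-regulating factor Pparg. The mix of kinds differed too, with Selp-only cells at 28.9% and 59.5% of members at day 3 against 16.2% and 14.5% at vehicle. With members that had a Vwf UMI, 6 genes passed (5 shared with the 91), without cells with a Mki67, Top2a or Stmn1 UMI 9 (8 shared), and with doublets removed 13 (all shared). The number of calls was not stable. Without the library labelled day 3 Cre-positive, which leaves 1 library at day 3, few of these calls remained. Leaving out members with platelet UMIs, 39 cells of which 24 were in that library, left 1 gene. Without the vehicle Cre-negative library 793 passed, and without the Cre-negative or the Cre-positive library of day 7 179 and 191. DESeq2 called 30 genes, 22 of them shared. In edgeR 1086 genes had an unadjusted p under 0.05. The day 3 and day 7 comparisons share the vehicle libraries.

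Stmn1, a regulator of microtubules in dividing cells, was 17.8 and 16.7 CPM at vehicle, 187 and 223 at day 3, and 33.1 and 33.7 at day 7. Both day 3 libraries lay above the other 4 (log2 change 3.62, SE 0.36, adjusted p = 3.66e-06). Hmgb2, a chromatin protein of cycling cells, was 99.0 and 124 CPM at vehicle, 420.1 and 501 at day 3, and 125 and 97.7 at day 7 (log2 change 2.10, SE 0.31, adjusted p = 0.001) and the histone gene H2afz 183 and 174 CPM at vehicle, 525 and 898 at day 3, and 197 and 303 at day 7 (log2 change 2.0, SE 0.33, adjusted p = 0.00307), with the same order. With Tyms, which makes thymidylate for DNA, 4 of the 8 tested cell cycle genes were higher, all 8 changes were positive and the median was 1.49. Members with a UMI of Mki67 or Top2a were 7.35% and 2.63% at vehicle, 17.2% and 18.9% at day 3, and 1.09% and 8.51% at day 7. Among Selp-only members they were 27.3% and 9.09% at vehicle, 32.4% and 27.4% at day 3, and 0% and 14.3% at day 7, where vehicle and day 7 rest on 7 to 11 cells per library, and among Vwf-only members 4.76% and 0% at vehicle, 5.00% and 3.33% at day 3, and 0% and 7.69% at day 7. HEV cells with such a UMI were 14.2% and 14.2% at vehicle, 34.0% and 30.1% at day 3, and 11.5% and 18.6% at day 7. Those with no Vwf or Selp were 4.06% and 1.76% at vehicle, 9.50% and 17.1% at day 3, and 1.92% and 5.21% at day 7. Depth differed, with medians of 13153 and 11544 UMIs in HEV cells at day 3 against 5525 and 5628 in members. The treatment responses of Mki67 and Top2a were called different between members and each other class, in the tests given below. Without the library labelled day 3 Cre-positive, Stmn1 still passed (log2 change 3.41, adjusted p = 1.11e-05), and Hmgb2 (adjusted p = 0.0507) and H2afz (adjusted p = 0.117) did not. Cks2, which binds cyclin-dependent kinases, changed by 2.97 (SE 0.44) and Selenoh, a nuclear selenoprotein, by 2.0 (SE 0.35).

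Of the 15 immediate early genes 3 were lower, and 13 changes were negative (median -0.72). Fosb, an AP-1 subunit, was 168 and 441 CPM at vehicle, 70.6 and 107 at day 3, and 344 and 283 at day 7 (log2 change -1.65, SE 0.34, adjusted p = 0.016), lower at day 3 than at vehicle within each genotype. Zfp36, which destabilises cytokine transcripts, and Nr4a1, a nuclear receptor, were the others (log2 changes -1.54 and -1.13). Vcam1 was 333 and 446 CPM at vehicle, 107 and 111 at day 3, and 252 and 121 at day 7 (log2 change -1.78, SE 0.32, adjusted p = 0.00811). Both day 3 libraries were below both vehicle libraries, and the day 7 Cre-positive library was near day 3. Within Selp-only cells Vcam1 was 867 and 426 CPM at vehicle, 85.1 and 102 at day 3, and 624 and 95.2 at day 7. These rest on 11 and 11 cells at vehicle, 37 and 113 at day 3, and 11 and 7 at day 7. The part of the mix of kinds in the change of Vcam1 was not tested. Without the library labelled day 3 Cre-positive neither Vcam1 nor Fosb was called, in a fit with 1 day 3 library left. The day 3 library left held 107 CPM of Vcam1 and 70.6 CPM of Fosb. Pparg changed by -1.66 (SE 0.33) and Gcnt1, an enzyme of selectin ligand synthesis, by -1.57 (SE 0.39). 9530026P05Rik, a non-coding gene of antisense type, was 282 and 341 CPM at vehicle, 92.2 and 52.0 at day 3, and 303 and 279.5 at day 7 (log2 change -2.10, SE 0.31, adjusted p = 0.001), and reads of its partner cannot be told apart where strand was not used in counting.

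Further genes lower at day 3 were Comp, a matrix protein (-3.11), Gria3, a glutamate receptor subunit (-2.33), Cyp4b1, a cytochrome P450 (-2.01), and Sik1, a kinase induced by cAMP (-1.73).

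Secretory and inflammatory genes are read beside the 1.36% of all genes that passed at day 3. At that share 0 calls in a list of 30 genes say little about the list. Ifi27l2a, an interferon-inducible gene, was 63.5 and 47.7 CPM at vehicle, 158 and 309.7 at day 3, and 118 and 125 at day 7 (log2 change 2.09, SE 0.35, adjusted p = 0.00326), while of the 30 interferon list genes none passed and 22 had negative changes. Hspa5, the main chaperone of the endoplasmic reticulum, was 241 and 284 CPM at vehicle, 644 and 533 at day 3, and 414 and 303 at day 7 (log2 change 1.21, SE 0.30, adjusted p = 0.0465). It and Sdf2l1 were the 2 called of 19 folding genes, of which 18 had positive changes with a median of 0.44. Anxa2, an annexin of the cell surface and of Weibel-Palade body release, changed by 1.24 (SE 0.30, adjusted p = 0.0416). The Hspa5 call held under 7 of 19 alternatives and that of Anxa2 under 6 of 19 alternatives. Sele, not called at day 3, stood at 292 and 484 CPM at vehicle, 561 and 418 at day 3, and 316 and 330.0 at day 7 in members.

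**Figure D5:**
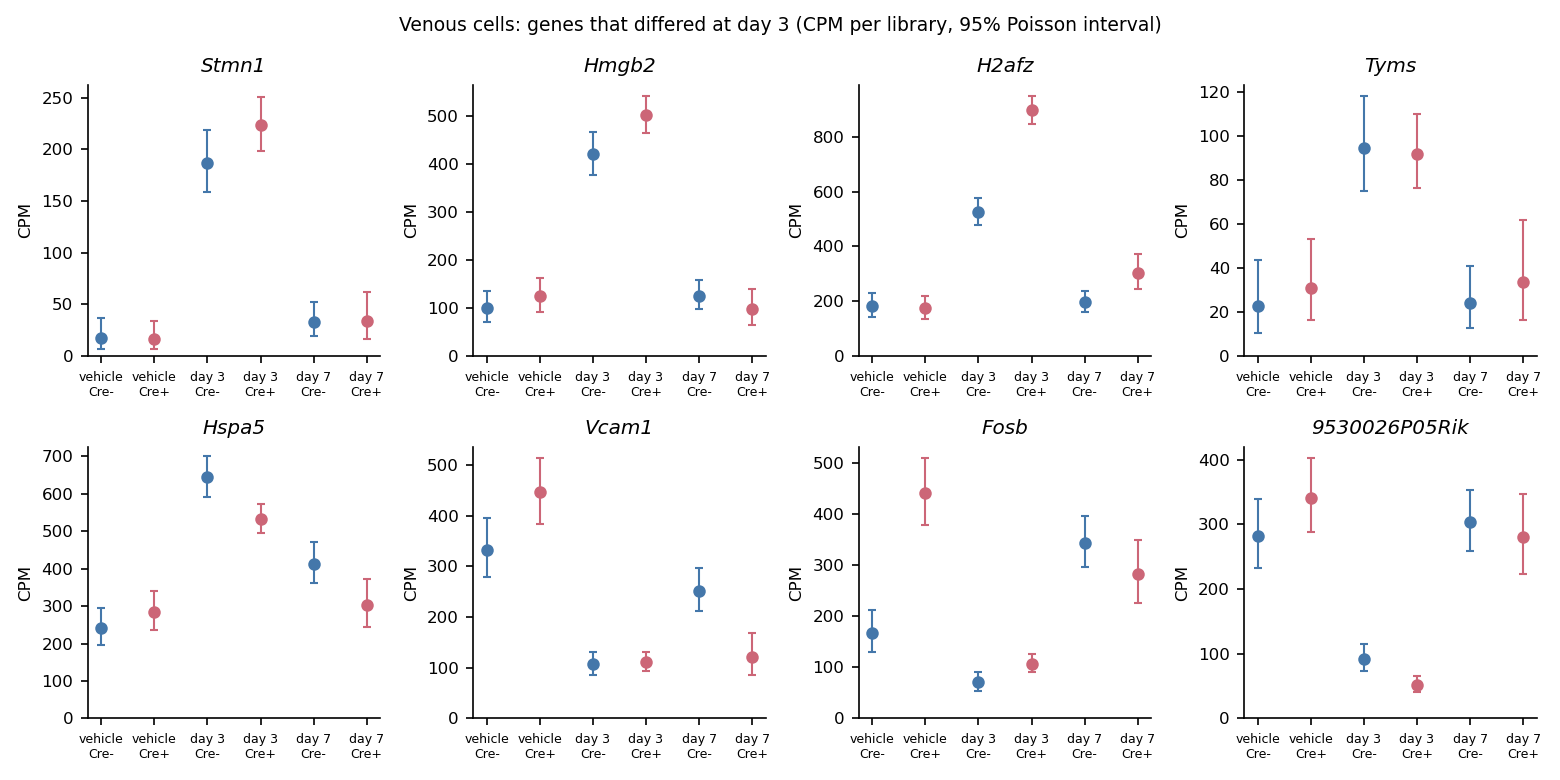
Levels at vehicle, day 3 and day 7 of 8 genes called at day 3 in members, in CPM with exact Poisson 95% intervals, with 1 point per library. Stmn1 lay at 187 and 223 CPM at day 3 and at 16.7 to 33.7 CPM in the other 4 libraries.

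At day 7, 2 of 6695 genes passed (0.0299%), Ccl21a and F5, with 249 at an unadjusted p under 0.05 in edgeR. DESeq2 called Ccl21a and not F5 (adjusted p = 1). Leaving out each other library in turn gave 5 to 70 calls that included both genes: 70 and 30 without a vehicle library, 5 and 7 without a day 3 library and 18 without the day 7 Cre-positive one. Ccl21a was 615 and 472 CPM at vehicle, 662 and 461 at day 3, and 4221 and 1152 at day 7 (log2 change 2.16, SE 0.38, adjusted p = 0.0352), highest in the Cre-negative library of day 7. F5, coagulation factor V, was 33.0 and 35.8 CPM at vehicle, 34.7 and 39.8 at day 3, and 162 and 104 at day 7 (log2 change 2.01, SE 0.36, adjusted p = 0.0352), with both day 7 libraries above the other 4. Without the day 7 Cre-negative library neither gene was called, in a fit with 1 day 7 library left. The day 7 library left held 1152 CPM of Ccl21a and 104 CPM of F5. With Glycam1 at most 1% of a member's UMIs, the log2 change of Ccl21a was 0.83 (adjusted p = 0.996) and that of F5 1.55 (adjusted p = 0.996). Without members that carried platelet UMIs, the log2 change of Ccl21a was 1.36 (adjusted p = 0.968) and that of F5 1.78 (adjusted p = 0.968). Neither gene was called with Vwf and Selp of at least 3 UMIs, members of at least 2000 UMIs, doublets removed or free RNA subtracted. F5 came from 52 members, 1 of which gave 18.0% of its UMIs. It lies beside the selectin genes on chromosome 1 (GRCm38, all on the plus strand): Sele at chr1:164048234-164057677, Selp at chr1:164115264-164150026 and F5 at chr1:164151838-164220277. Glycam1 was 3529.9 and 1784 CPM at vehicle, 785 and 2489 at day 3, and 14812 and 4249.9 at day 7 and was not called (log2 change 1.84, SE 0.52). Its change was 0.95 without members that carried platelet UMIs. With Glycam1 at most 1% of UMIs it was -0.29, but that filter reads Glycam1 itself, so this value tests nothing about Glycam1. Members above that share were 5 and 1 at vehicle, 1 and 15 at day 3, and 8 and 3 at day 7. On the HEV programme list, 1 gene was called at day 7, Ccl21a, and 13 of the 16 tested HEV programme genes had positive changes at day 7 with a median of 0.35.

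Responses of members and of the 2 other classes were compared directly. The treatment response differed between members and HEV cells in 26 of 9882 genes (0.263%) and between members and cells with no Vwf or Selp in 84 of 12397 (0.678%), by an F test of both time points together, which gives no direction. These counts are from edgeR, and DESeq2 called far fewer genes in both comparisons. Against HEV cells, 4 of the 17 tested cell cycle genes were among the 26 calls: Top2a, Mki67, Cdk1 and Birc5. The rise at day 3 in cells with a Mki67 or Top2a UMI, seen in both classes, thus does not show the same response of these genes. Ccl21a differed from HEV cells, where it was 6316 and 5588 CPM at vehicle, 4595 and 4121 at day 3, and 8266 and 3889.8 at day 7 (adjusted p = 1.47e-06, edgeR), and this held under 12 of 12 alternatives. Those did not include the settings without platelet UMIs or with Glycam1 at most 1% of UMIs, which were fitted for members alone. Vcam1, which fell at day 3 in members, was 119 and 192 CPM at vehicle, 113 and 109.7 at day 3, and 127 and 151 at day 7 in HEV cells (adjusted p = 0.0469, called under 5 of 12 alternatives). Cxcl1 was 529 and 767 CPM at vehicle, 292 and 398 at day 3, and 648 and 353 at day 7 in HEV cells and 76.2 and 129 CPM at vehicle, 139 and 159 at day 3, and 173 and 158 at day 7 in members (adjusted p = 0.0178): HEV cells were lower at day 3 than at vehicle in both genotypes and members were not. Against cells with no Vwf or Selp, 5 of the 18 tested cell cycle genes differed: Stmn1, Top2a, Mki67, Cdk1 and Birc5. The genes that differed from cells with no Vwf or Selp also included Glycam1, Sele, Vcam1 and Cd36. Stmn1 was 114 and 45.8 CPM at vehicle, 247 and 264 at day 3, and 67.4 and 108 at day 7 in those cells (adjusted p = 0.00313) and Sele 10.5 and 17.8 CPM at vehicle, 36.6 and 34.6 at day 3, and 7.64 and 14.1 at day 7 (adjusted p = 0.00115). Some of these 84 rest on few cells: 1 member gave 73.6% of the Lyz2 UMIs and 1 gave 86.2% of the Ccl2 UMIs. Leaving out the library labelled day 3 Cre-negative left 3 of the 26 and 6 of the 84 calls. Against HEV cells there were 48 and 16 calls without the Cre-negative or the Cre-positive vehicle library and 58 and 94 without those of day 7. Against cells with no Vwf or Selp there were 178 and 131 without those of vehicle and 17 without the library labelled day 3 Cre-positive.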

How the data were processed

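Single-cell RNA was counted in 6 CD31 libraries of mouse lymph node, made with a 10x 3′ kit per the labels' protocols. The authors deposited UMI counts per gene and barcode, from Cell Ranger 7.0.1 on mm10 per the submitters' processing notes, while the file headers name version 4. Of 32285 gene identifiers, 32158 (99.6%) were in GENCODE M21 for GRCm38, the source of gene coordinates. Strand handling is not given in the sources used here.

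Members were chosen by the rule, and the UMIs of each class were added up within a library. Sums were fitted with edgeR 4.0.16 in R 4.3.3: filterByExpr, TMM, glmQLFit, genotype and treatment as additive terms for members, the library as a block between classes and kinds. Rule genes and mRFP, an added feature listed in 4 libraries, were left out. P-values were adjusted by Benjamini-Hochberg at 0.05. SE is the size of the log2 change divided by the root of F. With 1 library per group, nothing was tested within a time point. CPM is per 1000000 UMIs of the class in a library. Confidence intervals are at 95%. Python 3.11.15, scanpy 1.11.5, scipy 1.17.1 and DESeq2 1.42.0 served the rest. The scripts were tested on simulated data.

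Members, lists and tests were chosen with earlier results of these data known. Named genes were, per comparison, the 12 largest called changes in each direction with at least 20 CPM and the same sign in every matched pair, or where under 5 were called the 5 smallest p, plus called members of each list up to 6 and its first 3. Not all are printed, and Cytl1, Eln, Fbln2, Vegfc, and the promoters shown were chosen after their values were seen. Alternatives changed the scaling, the count filter, the tool, the member rule, the cells and the libraries. No doublets were removed for the main values. Scrublet-based removal, which took 3 to 19 members per library, was an alternative. The removed barcodes had a lower median depth than those kept in 2 libraries (3932.5 against 4325 and 2203 against 3433 UMIs), so there the scores did not pick out the deepest barcodes. Free RNA, judged from B and T cell receptor genes, was estimated at 0% to 2.93% of members' UMIs per library. Cells with a UMI of Ptprc, Cd79a or Cd3e had been left out before, so these estimates may be too low. The estimate of 0% rests on 0 receptor UMIs in 1 library and is no bound. The result of 1 gene is not reported here.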

Additional observations from a re-analysis of the deposited data

Results flagged for a closer look

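The response to oxazolone differed between venous members and HEV cells in 26 genes, and between members and cells with no Vwf or Selp in 84 genes, by a test of the class by treatment terms in edgeR. DESeq2 called far fewer genes in both comparisons. The genotype difference differed between members and HEV cells in 5 genes. In log2 units, as members minus HEV cells, these included Hamp at 4.88 (adjusted p = 2.01e-09), Mt1 at -4.36 (adjusted p = 2.83e-05), Gm34455 at -2.22 (adjusted p = 0.0103) and Edn1 at -2.05 (adjusted p = 0.021). Edn1 was 1.47 to 12.3 CPM in HEV cells, below each library's level in members. Leaving out the day 3 Cre-negative library left 1 call, leaving out the day 3 Cre-positive, day 7 Cre-negative or day 7 Cre-positive library gave 12, 25 and 24, and DESeq2 made 2.

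An added feature called mRFP, used in no comparison, had 364 UMIs in the whole vehicle library labelled Cre-positive, 930 in the day 3 one and 342 in the day 7 one, and 0 in the day 7 library labelled Cre-negative. The vehicle and day 3 libraries labelled Cre-negative do not list this feature, so no value can be given for them.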

How the results depend on the processing

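In all, 7464 values of named genes were recomputed under the alternatives: 6727 stayed on the same side of the threshold, 110 newly passed it and 627 no longer did. Of the 5556 that have a direction, 383 took the opposite sign, 0 of them past the threshold in either fit. Counts of called genes moved more. For the genotype difference (4), they were 30 with no count filter, 2 without platelet UMIs, 0 among members with a Y-linked UMI, 25 without both vehicle libraries, 15 without both day 7 libraries, 9 without cells with a Mki67, Top2a or Stmn1 UMI, and 9 to 64 leaving out 1 library. For day 3 (91), they were 300.0 with no filter, 30 with DESeq2, 26 with Vwf and Selp of at least 3 UMIs, 46 with members of at least 2000 UMIs, 1 without platelet UMIs, 45 with Glycam1 at most 1% of UMIs, 13 without doublets, 0 with a Y-linked UMI, 6 with a Vwf UMI, 9 without dividing cells as above, and 3 to 793 leaving out 1 library. For day 7 (2), they were 22 with no filter, 1 with DESeq2, 1 with a Vwf UMI, 3 to 70 leaving out 1 library, and 0 with Vwf and Selp of at least 3, at least 2000 UMIs, no platelet UMI, Glycam1 at most 1%, doublets removed, free RNA subtracted or a Y-linked UMI. Between kinds (380), they were 604 with no filter, 91 without both day 3 libraries, and 211 to 340.0 leaving out 1 library. Against HEV cells, treatment calls (26) were 77 with no filter, 5 with DESeq2, 6 at 2000 UMIs, 4 without doublets, and 3 to 94 leaving out 1 library, and genotype calls (5) were 22, 2, 3, 3, and 1 to 25 in that order. Against cells with no Vwf or Selp (84), they were 4 with DESeq2 and 6 to 178 leaving out 1 library. The cause of these changes was not tested. The fits with a Vwf UMI, without dividing cells and between kinds without both day 3 libraries were chosen after seeing the data.

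Shares of members with cells thinned to 1000 UMIs were 1.22% and 1.85% at vehicle, 2.80% and 2.04% at day 3, and 2.58% and 1.05% at day 7. With at least 3 UMIs they were 1.06% and 1.64% at vehicle, 2.69% and 2.54% at day 3, and 1.90% and 1.12% at day 7. With RLE in place of TMM scaling, the counts in the order above were 4, 91, 2, 383, 24, 5 and 106. The labels carry no mouse or replicate numbers to pair by. Libraries were matched by treatment alone, as a term of the genotype fit. The library itself was the block between kinds and classes. With 47 to 190 members per library, genes of low level could not be tested, and 2352 genes passed the filter between kinds.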
